A study of Mus musculus with 6 samples.

Results

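Mouse mitochondria carry their own circular genome, and the transcripts described here are those encoded on it. They were taken from a table of read counts per gene as all rows whose Ensembl identifier maps to a mouse symbol beginning with mt-, which gave 35 of 29139 rows: 13 protein-coding genes, 2 rRNA genes and 20 tRNA genes. The annotation lists 37 such genes, 22 of them tRNAs, and mt-Tn and mt-Tr were not analysed here. RNA came from ICR mouse embryos at the 2-cell stage, with 16 embryos named per sample. The embryos of 3 libraries had been kept in KSOM, a culture medium for early mouse embryos, with 75 µM MS-444, a small molecule known as an inhibitor of the RNA-binding protein HuR. Those of the other 3 libraries had been kept in KSOM with 0.1% DMSO, the solvent. The sources used here do not give the time in culture or say whether replicates came from separate cultures or mothers. The p-values below therefore measure the spread between samples, which may be technical. Values per library are given in the order of the replicates 1, 2 and 3 of each group.

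Both strands of the mitochondrial genome are transcribed into long precursors that hold rRNAs, mRNAs and tRNAs end to end. Cutting at the tRNAs frees the RNAs on either side, so that transcripts born together can end at very different levels. The proteins are core subunits of respiratory complexes I, III and IV and of the ATP synthase (complex V), the rRNAs and tRNAs serve the ribosome inside the mitochondrion, and all other mitochondrial proteins come from nuclear genes. Oocytes and early embryos live on a large stock of mitochondria made before fertilization.

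Library totals were 2637763 to 3772141 counts with MS-444 and 2669918 to 4695866 with DMSO. The summed level of 10 markers of the 2-cell stage was 1627 to 1998 CPM (counts scaled to a common library size) with MS-444 and 1522 to 2213 with DMSO, and all 10 were detected. Of these 10, 0 rose and 1 fell, where 14.4% and 11.1% of all genes tested did by edgeR. The marker that fell was Zscan4f (log2 -1.47, SE 0.47, edgeR adjusted p = 0.044), with overlap between the groups. Somatic markers were low. The 6 granulosa and cumulus genes with a row summed to 6.97 to 9.80 CPM with MS-444 and 8.09 to 9.90 with DMSO, the 5 of oviduct and stroma to 4.81 to 6.17 and 1.37 to 3.17, and the 3 of blood to 15.2 to 26.9 and 4.80 to 10.7. The blood sum lay mostly on the hemoglobin gene Hba-a1, which stood at 9.44, 23.97 and 15.4 CPM with MS-444 and at 3.17, 7.30 and 2.02 CPM with DMSO and rose (log2 1.93, SE 0.53, edgeR adjusted p = 0.026). The cumulus gene Tnfaip6 stood at 5.08, 4.14 and 2.88 CPM with MS-444 and at 2.77, 0.46 and 0.51 CPM with DMSO, without overlap, and did not pass (log2 1.84, SE 0.69, edgeR adjusted p = 0.073). Cyp19a1 of the same list went the other way, also without overlap. It stood at 3.99, 3.255 and 2.40 CPM with MS-444 and at 5.15, 7.30 and 6.83 CPM with DMSO, and did not pass (log2 -1.02, SE 0.43, edgeR adjusted p = 0.11). Ptx3 of cumulus cells stood at 0 in all libraries but DMSO replicate 1 (0.396 CPM), and Ptprc of leukocytes in all but MS-444 replicate 2 (0.296 CPM). Of the other markers of these lists, Foxl2, Vim and Cd68 were detected in each library. Fshr, Has2, Ovgp1, Foxj1, Col1a1 and Dcn were each missing from part of the libraries. Markers of the oocyte and zygote summed to 3673 to 4538 CPM with MS-444 and 4959 to 7069 CPM with DMSO, and 5 of 10 fell, where 11.1% of all genes tested fell by edgeR. The oviduct and blood sums were higher, and the oocyte sum lower, in each MS-444 library than in each DMSO library, and their part in the results was not tested.

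The share of counts on mitochondrial transcripts was higher in each MS-444 library than in each DMSO library. The share was 5.27%, 5.06% and 4.44% in MS-444 replicates 1, 2 and 3, against 3.22%, 3.30% and 3.86% in DMSO replicates 1, 2 and 3. The groups did not overlap, with a difference of 1.46 percentage points (exact permutation p = 0.1, two-sided, the smallest that 3 against 3 libraries allow). This share is of library totals, without the TMM scaling used for CPM. TMM factors were 1.04, 1.05 and 1.10 with MS-444 and 0.946, 0.934 and 0.939 with DMSO, which narrows the difference. On the TMM scale MS-444 replicate 3 lay below DMSO replicate 3, so the groups overlapped. A share of counts does not give an amount per embryo. The number of mitochondria, the RNA per mitochondrion and the amount of other RNA cannot be told apart in such samples. These shares rest on 139040 to 167649 mitochondrial counts per library with MS-444 and 86024 to 162686 with DMSO. Of the mitochondrial counts, 80.7% to 83.2% with MS-444 and 80.5% to 83.8% with DMSO fell on 4 genes, mt-Cytb, mt-Rnr2, mt-Nd1 and mt-Nd4. mt-Cytb alone held 33.3%, 47.6% and 41.1% of them with MS-444 and 41.2%, 36.2% and 23.9% with DMSO. The mitochondrial share thus leans on this gene. With the counts of mt-Cytb left out, the share in DMSO replicate 3 lay above those in MS-444 replicates 2 and 3, so the groups overlapped.

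**Figure D1:**
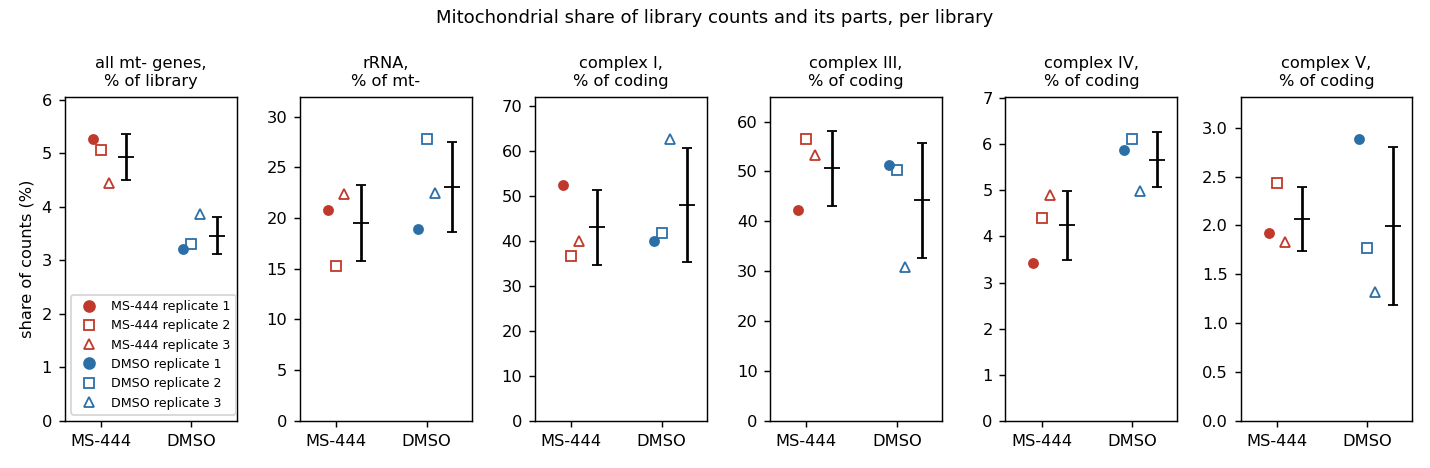
Share of counts in percent per library, MS-444 left of DMSO, for all mitochondrial genes within the library, rRNA within mitochondrial counts, and each respiratory complex within mitochondrial protein-coding counts; bars are mean and SD of 3 libraries. The mitochondrial share lies between 4.44% and 5.27% with MS-444 and between 3.22% and 3.86% with DMSO, while complex I and III shares differ mainly between libraries of the same group.

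Gene by gene, few differences passed the test. Counts were compared by edgeR's quasi-likelihood test after scaling by TMM, and p was adjusted after Benjamini and Hochberg over 11864 genes. Of the 35 mitochondrial rows, 25 had enough counts to be tested. The 2 that rose past an adjusted p of 0.05 were the mRNA mt-Nd2 and the tRNA mt-Te, and 0 fell, where 14.4% of all genes tested rose and 11.1% fell. By DESeq2 the same 2 genes passed and 0 fell. In 3 of the 25, mt-Nd2, mt-Te and mt-Cytb, the groups did not overlap, where this held for 43.9% of all genes tested. At an unadjusted p under 0.05 these same 3 genes were higher and 0 were lower. Over the 25 genes the median log2 fold change was 0.28, against 0.02 over all genes tested, and 20 of the 25 were above 0, against 50.6% of all genes. The direction of that median depended on the processing: after correcting for GC content and length of the transcripts it was -0.56, with 4 of 25 above 0. When library totals replaced TMM, the median of all genes moved to 0.20, and 24 of the 25 were above 0.

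**Figure D2:**
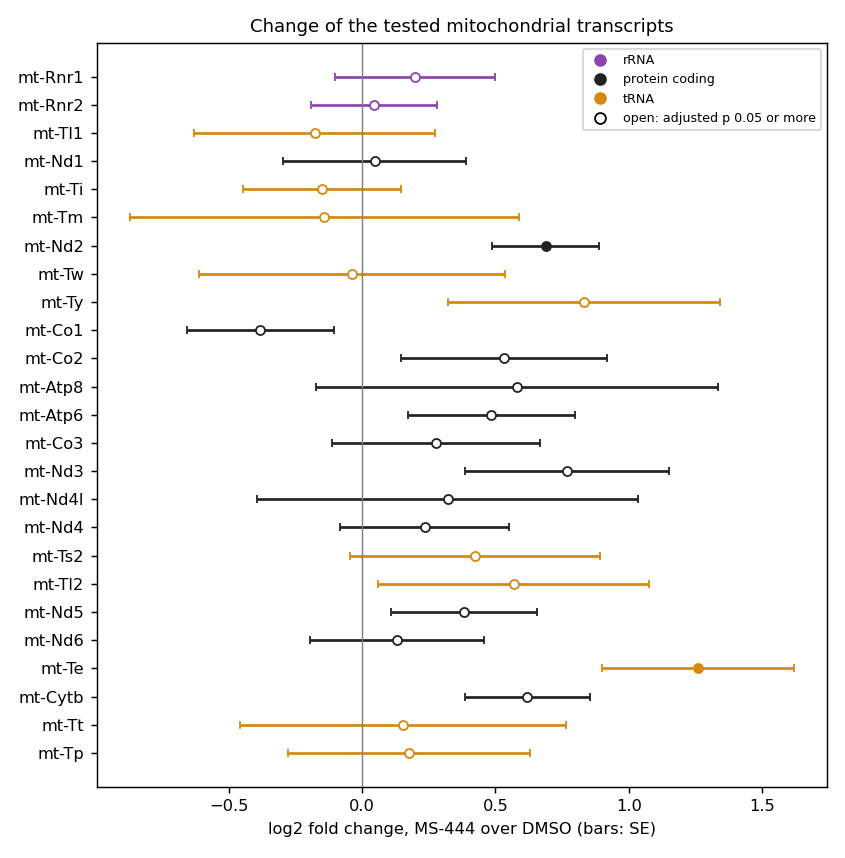
Log2 fold change of MS-444 over DMSO with its standard error (horizontal axis) for the 25 tested mitochondrial transcripts in the order of the genome, coloured by class; filled points passed an adjusted p of 0.05. The filled points are mt-Nd2 at 0.69 and mt-Te at 1.26, and mt-Co1 is the only mRNA below 0.

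A second pattern crossed the groups. MS-444 replicate 1 and DMSO replicate 3 stood apart from the other libraries of their groups, and did so in the same genes. The tRNA mt-Tm was 3.50 times as high in MS-444 replicate 1 as the mean of replicates 2 and 3, and 4.56 times as high in DMSO replicate 3 as the mean of replicates 1 and 2. For mt-Atp8 these ratios were 4.92 and 4.18, and for mt-Nd4l 3.68 and 5.08. The tRNA mt-Tt went the other way, at 0.19 and 0.30. Of the 25 tested genes, 11 had both ratios above 1, 10 had both below 1 and 4 had 1 on either side, with no minimum size set. Across the 25 genes the 2 log2 ratios had a Pearson correlation of 0.93, and across 11824 nuclear genes 0.32. The 2 libraries were picked after seeing the data, so these correlations describe the pattern and do not test it. Neighbouring genes share precursors and reads, so the 25 points are not independent.

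Both ratios were above 1 for mt-Rnr2, mt-Nd1, mt-Ti, mt-Tm, mt-Co1, mt-Atp8, mt-Nd4l, mt-Nd4, mt-Ts2, mt-Nd5 and mt-Tp. Both were below 1 for mt-Tl1, mt-Nd2, mt-Tw, mt-Ty, mt-Co2, mt-Atp6, mt-Co3, mt-Te, mt-Cytb and mt-Tt. Median GC content was 37.1% in the genes above 1 and 37.3% in those below, and median length 297 and 378 bases. Among those below 1, mt-Nd2 had ratios of 0.97 and 0.99, so that for it both libraries stood with the rest of their groups. Without both libraries the mitochondrial share was still 1.49 percentage points higher with MS-444, and 0 genes passed in either direction. The log2 fold changes of mt-Nd2 and mt-Te were then 0.68 and 1.35 (adjusted p 0.058 and 0.061), about as large as with all 6 libraries.

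**Figure D3:**
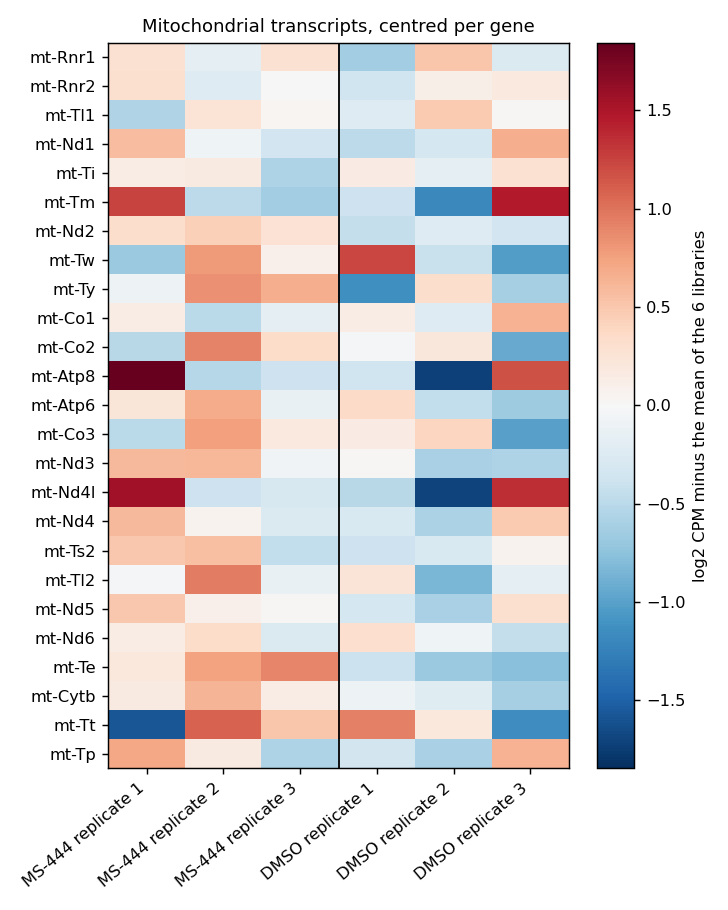
Log2 CPM of each tested mitochondrial transcript minus its mean over the 6 libraries, MS-444 libraries left of DMSO libraries, genes in the order of the genome. MS-444 replicate 1 and DMSO replicate 3 share their high (mt-Tm, mt-Atp8, mt-Nd4l) and low (mt-Tt, mt-Co2, mt-Co3) genes, and mt-Nd2, mt-Te and mt-Cytb separate the groups.

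The rRNAs lie near the start of the heavy-strand transcript, after mt-Tf and with mt-Tv between them. The 12S rRNA of the small ribosomal subunit, mt-Rnr1, stood at 2096, 1529 and 2097 CPM in MS-444 replicates 1, 2 and 3 and at 1107, 2448 and 1430 CPM in DMSO replicates 1, 2 and 3. The 16S rRNA of the large subunit, mt-Rnr2, stood at 8416, 5838 and 6933 CPM with MS-444 and at 5349, 7391 and 7805 CPM with DMSO. Groups overlapped for both, with log2 fold changes of 0.20 (SE 0.30) and 0.04 (SE 0.24, adjusted p 0.65 and 0.90). That of mt-Rnr2 was -0.02 without MS-444 replicate 1 and DMSO replicate 3. Together the rRNAs made 19.5% ± 3.77 of mitochondrial counts with MS-444 and 23.1% ± 4.46 with DMSO (SD, n = 3, exact permutation p = 0.4). That difference of -3.58 percentage points was -1.45 without MS-444 replicate 2, -1.21 without DMSO replicate 2 and -5.64 without DMSO replicate 1.

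Complex I, the NADH dehydrogenase that feeds electrons into the chain, takes 7 of the 13 proteins. Its mt-Nd2 (ENSMUSG00000064345), a membrane subunit of the proton-pumping arm, had 5513, 7382 and 8043 counts in MS-444 replicates 1, 2 and 3 and 2975, 5973 and 4960 in DMSO replicates 1, 2 and 3. Scaled, these were 2001, 2185 and 1933 CPM with MS-444 and 1178, 1362 and 1254 CPM with DMSO. The groups were separate and tight, at 2039.6 ± 130.1 CPM with MS-444 and 1264.7 ± 92.4 CPM with DMSO (SD, n = 3). The log2 fold change was 0.69 (SE 0.20, edgeR adjusted p = 0.032). Leaving out any single library ended the call (0.58 to 0.71, adjusted p 0.061 to 0.15), as did correcting for GC content and length (0.21, adjusted p = 0.55).

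A partial copy of mt-Nd2 in the nuclear genome, the pseudogene Gm13339, has a row of its own. It aligned over 510 bases at 96.7% identity, with 17 differences. Reads over such differences can be told apart between the 2 rows. The stretch with the most differences is shown for both, and capitals mark the 6 bases that differ in it. The other differences lie outside this stretch.
mt-Nd2: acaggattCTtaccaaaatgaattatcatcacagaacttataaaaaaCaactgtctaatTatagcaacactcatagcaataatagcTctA
Gm13339: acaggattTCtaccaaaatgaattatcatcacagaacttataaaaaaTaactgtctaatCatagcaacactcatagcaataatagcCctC
In this stretch the mitochondrial gene and its copy differ by C780T, T781C, C819T, T831C, T858C and A861C, counted from the first base of mt-Nd2. Gm13339 held 0.20% to 0.87% of the counts of both rows.

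The other complex I mRNAs did not pass. mt-Nd1 stood at 8912, 5725 and 4712 CPM in MS-444 replicates 1, 2 and 3 and at 4304, 4820 and 9599 CPM in DMSO replicates 1, 2 and 3. mt-Nd4 stood at 7842, 5447 and 4333 CPM with MS-444 and at 4283, 3458 and 7237 CPM with DMSO. For mt-Nd5 the values were 1999, 1511 and 1433 CPM with MS-444 and 1123, 932.2 and 1735 CPM with DMSO. In each of these 3 mRNAs the highest library of a group was MS-444 replicate 1 or DMSO replicate 3, and the groups overlapped. Log2 fold changes were 0.05 (SE 0.34), 0.23 (SE 0.32) and 0.38 (SE 0.27), with adjusted p of 0.93, 0.61 and 0.32. The shorter mt-Nd4l stood at 100.2, 26.3 and 28.1 CPM with MS-444 and at 24.2, 10.5 and 88.0 CPM with DMSO, an 8.39-fold range within the DMSO libraries alone. Its log2 fold change of 0.32 (SE 0.71) was -0.63 without MS-444 replicate 1 and 1.55 without DMSO replicate 3, with an adjusted p of 0.12 or more in each.

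Lowest per length among the mRNAs was mt-Nd3, with 39, 48 and 37 counts with MS-444 and 24, 27 and 25 with DMSO. These came to 12.4 ± 3.05 CPM and 7.33 ± 1.89 CPM (SD, n = 3), and the log2 fold change of 0.77 (SE 0.38) did not pass (edgeR adjusted p = 0.16). mt-Nd6 is the single mRNA of the light-strand transcript, read from the opposite strand to all the others. It stood at 22.1, 25.5 and 16.8 CPM with MS-444 and at 24.95, 19.2 and 14.9 CPM with DMSO (log2 0.13, SE 0.33, adjusted p = 0.79). It took 0.057% ± 0.0045 of protein-coding counts with MS-444 and 0.071% ± 0.022 with DMSO (SD, n = 3, exact permutation p = 0.4). The sources used here do not say whether reads kept their strand, and mt-Nd6 shares 14 bases with the end of mt-Nd5, so its counts could hold reads of the other strand.

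mt-Cytb (ENSMUSG00000064370), the cytochrome b of complex III, had the most counts of the mitochondrial genes in each of the 6 libraries, and per length in each but DMSO replicate 3, where mt-Nd1 was higher. It stood at 16796, 23020 and 16544 CPM in MS-444 replicates 1, 2 and 3 and at 14049, 12798 and 9820 CPM in DMSO replicates 1, 2 and 3. Each MS-444 library was above each DMSO library, as for 23.0% of all genes tested. The log2 fold change of 0.62 (SE 0.23) missed the threshold (edgeR adjusted p = 0.073) and passed with library totals in place of TMM (0.80, adjusted p = 0.028). As part of protein-coding counts it held 50.6% ± 7.50 with MS-444 and 44.2% ± 11.5 with DMSO (SD, n = 3, exact permutation p = 0.5). The DMSO value rested on replicate 3 at 30.9%, beside 51.3% and 50.4% in replicates 1 and 2, and without it the difference was -0.19 percentage points.

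Like mt-Nd4 and mt-Co3, mt-Cytb ends 1 base into its stop codon, which the poly(A) tail completes. Their last 30 bases show this, with the base after the last whole codon in capitals.
mt-Cytb: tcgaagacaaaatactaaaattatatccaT
mt-Nd4: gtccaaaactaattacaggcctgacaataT
mt-Co3: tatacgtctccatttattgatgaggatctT
Of these 3 mRNAs, mt-Nd4 was highest and mt-Co3 lowest of its group in both MS-444 replicate 1 and DMSO replicate 3. mt-Cytb was lowest of its group in DMSO replicate 3. In MS-444 replicate 1, at 16796 CPM, it lay close to replicate 3 at 16544 CPM and below replicate 2 at 23020 CPM.

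Complex IV, cytochrome c oxidase, passes electrons to oxygen. Its mt-Co1, the catalytic subunit, stood at 869.6, 563.5 and 699.0 CPM with MS-444 and at 871.7, 675.5 and 1231 CPM with DMSO (log2 -0.38, SE 0.28, adjusted p = 0.32). The copper-binding subunit mt-Co2 stood at 174.2, 471.7 and 316.3 CPM with MS-444 and at 245.2, 288.9 and 131.2 CPM with DMSO (log2 0.53, SE 0.39, adjusted p = 0.32). mt-Co3 stood at 317.9, 757.3 and 508.9 CPM with MS-444 and at 495.1, 588.8 and 223.2 CPM with DMSO (log2 0.28, SE 0.39, adjusted p = 0.62). Groups overlapped for each of the 3. Their joint part of protein-coding counts was 3.42%, 4.40% and 4.90% with MS-444 and 5.88%, 6.11% and 4.99% with DMSO, without overlap (exact permutation p = 0.1; 0.8 adjusted over 8 class, strand and complex shares). When counts of nuclear copies were added, the groups overlapped, though the difference stayed negative (-1.78 percentage points, exact permutation p = 0.3).

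Complex V makes ATP. Its mt-Atp6, part of the proton channel, stood at 717.9, 984.0 and 559.4 CPM with MS-444 and at 780.6, 446.3 and 389.1 CPM with DMSO (log2 0.49, SE 0.31, adjusted p = 0.27). mt-Atp8 stood at 46.1, 8.88 and 9.86 CPM with MS-444 and at 9.90, 3.88 and 28.8 CPM with DMSO (log2 0.58, SE 0.75, adjusted p = 0.59). Within DMSO alone mt-Atp8 spanned 7.43-fold. Both proteins are read from 1 mRNA, yet mt-Atp8 was high in MS-444 replicate 1 and DMSO replicate 3, where mt-Atp6 was at 0.93 and 0.63 of the mean of the other libraries of the group. The reading frames overlap, as do those of mt-Nd4l and mt-Nd4, which share an mRNA too. The sources used here do not say how reads over shared bases were counted. The last 60 bases of the upstream gene of each pair follow, with the bases that also open the downstream gene in capitals.
mt-Atp8: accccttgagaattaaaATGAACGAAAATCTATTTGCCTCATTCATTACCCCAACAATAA
mt-Nd4l: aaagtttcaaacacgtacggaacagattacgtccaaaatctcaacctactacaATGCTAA
The overlap was 43 bases for mt-Atp8 and mt-Atp6 and 7 for mt-Nd4l and mt-Nd4. On the shared mRNAs, mt-Nd4 was raised together with mt-Nd4l in the 2 libraries that stood apart.

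**Figure D4:**
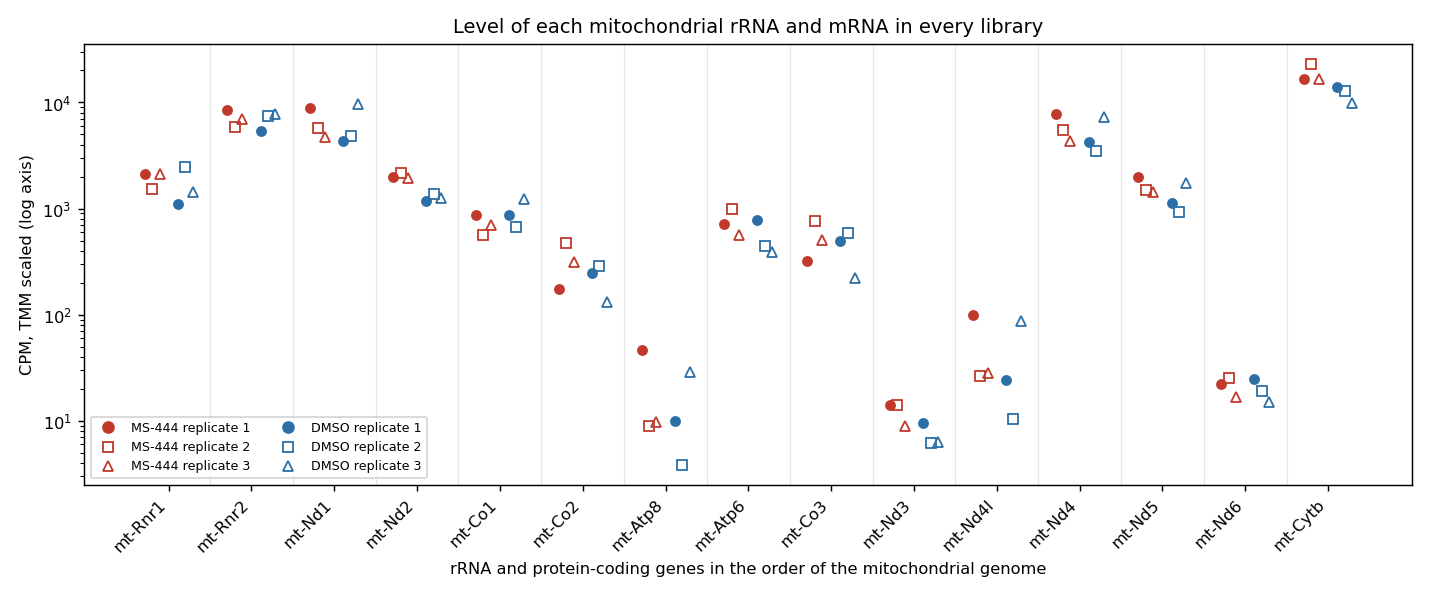
CPM on a log axis of the 2 rRNAs and 13 mRNAs in each library, in the order of the genome, MS-444 left of DMSO. Levels run from 3.88 CPM (mt-Atp8 in DMSO replicate 2) to 23020 CPM (mt-Cytb in MS-444 replicate 2), and the groups separate for mt-Nd2 and mt-Cytb.

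tRNAs bring amino acids to the mitochondrial ribosome and mark the cuts in the precursors. They made 0.40% ± 0.12 of mitochondrial counts with MS-444 and 0.45% ± 0.16 with DMSO (SD, n = 3, exact permutation p = 0.7). At 59 to 75 bases they are short for such libraries, and their counts may come from precursors or from reads of neighbouring genes, which these counts cannot tell apart. Of the 20 rows, 10 were tested and 10 fell below the minimum.

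mt-Te (ENSMUSG00000064369), the tRNA for glutamate, lies between mt-Nd6 and mt-Cytb on the light-strand transcript. It had 31, 56 and 77 counts in MS-444 replicates 1, 2 and 3 and 19, 27 and 23 in DMSO replicates 1, 2 and 3. That is 15.4 ± 3.76 CPM with MS-444 and 6.499 ± 0.91 CPM with DMSO (SD, n = 3). Groups did not overlap, and the log2 fold change was 1.26 (SE 0.36, edgeR adjusted p = 0.030). The call was lost in 8 of 19 alternatives, among them those without MS-444 replicate 2 or 3 or DMSO replicate 2 or 3 (1.10 to 1.16, adjusted p 0.085 to 0.12) and correcting for GC content and length (0.19, adjusted p = 0.74). mt-Nd6, its neighbour on the same precursor, had a log2 fold change of 0.13, and mt-Cytb, 5 bases away on the opposite strand, 0.62.

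The tRNAs mt-Tt for threonine and mt-Tp for proline lie just past mt-Cytb, on opposite strands. mt-Tt, the highest tRNA per length by mean, stood at 17.8, 112.5 and 75.2 CPM with MS-444 and at 101.4, 60.7 and 24.02 CPM with DMSO (log2 0.15, SE 0.61, adjusted p = 0.87). mt-Tp stood at 18.1, 12.4 and 7.45 CPM with MS-444 and at 8.71, 7.30 and 17.2 CPM with DMSO (log2 0.18, SE 0.46, adjusted p = 0.80). These neighbours ran opposite to each other between libraries: where mt-Tt was lowest, in MS-444 replicate 1 and DMSO replicate 3, mt-Tp was highest. The tRNA gene that rose and these 2 are given with the anticodon in capitals.
mt-Te: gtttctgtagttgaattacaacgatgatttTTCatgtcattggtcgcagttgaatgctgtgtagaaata
mt-Tt: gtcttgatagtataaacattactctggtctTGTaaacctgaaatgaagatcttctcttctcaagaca
mt-Tp: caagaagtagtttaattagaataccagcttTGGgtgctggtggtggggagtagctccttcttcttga

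Among the other tested tRNAs, mt-Ti for isoleucine stood at 36.1 ± 9.41 CPM with MS-444 and 40.04 ± 6.13 CPM with DMSO, and mt-Tw for tryptophan at 15.9 ± 7.68 and 16.7 ± 14.1 CPM (SD, n = 3). mt-Tw was highest, at 32.9 CPM, in DMSO replicate 1 and lowest, at 6.83 CPM, in DMSO replicate 3. mt-Tm for methionine stood at 9.80, 2.96 and 2.64 CPM with MS-444 and at 3.17, 1.82 and 11.4 CPM with DMSO. The remaining mt-Ty, mt-Ts2, mt-Tl1 and mt-Tl2 averaged 3.61 to 5.003 CPM with MS-444 and 2.73 to 4.07 CPM with DMSO. For these 7 the log2 fold changes ran from -0.18 (mt-Tl1) to 0.83 (mt-Ty), adjusted p was 0.25 or more, and groups overlapped.

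The 10 tRNA rows below the minimum held 110 counts over the MS-444 libraries and 86 over the DMSO libraries, and no value above 13. mt-Td for aspartate had 8, 9 and 10 counts with MS-444 and 6, 2 and 12 with DMSO. mt-Tc for cysteine had 3, 13 and 7 with MS-444 and 5, 6 and 12 with DMSO. mt-Tv for valine, between the rRNAs, had 11, 6 and 2 with MS-444 and 1, 1 and 8 with DMSO. Groups overlapped in these 3 rows. mt-Tg for glycine had 4, 3 and 2 counts with MS-444 and 1, 1 and 1 with DMSO, numbers too small to compare. mt-Tq, mt-Tk, mt-Ta, mt-Th, mt-Tf and mt-Ts1 had 0 to 7 counts per library.

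Per length, the order of levels was similar in both groups. mt-Cytb led at 16422 ± 3207 CPM per kilobase with MS-444 and 10684 ± 1899 with DMSO (SD, n = 3). It was followed by mt-Nd1 at 6740 ± 2290 with MS-444 and 6521 ± 3051 with DMSO, mt-Rnr2 at 4464 ± 818 and 4329 ± 831, and mt-Nd4 at 4263 ± 1301 and 3623 ± 1442. The last 3 lay within each other's spread. mt-Nd2 came next to mt-Rnr1, at 1965 ± 125 with MS-444 and 1218 ± 89.0 with DMSO, where mt-Rnr1 stood at 1997 ± 343 and 1740 ± 733, within their spread. At the low end of the mRNAs stood mt-Nd6 at 41.4 ± 8.38 with MS-444 and 37.9 ± 9.71 with DMSO and mt-Nd3 at 35.7 ± 8.77 and 21.1 ± 5.42.

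The low level of mt-Nd3 stood beside a high count on a nuclear copy of it. The table held 11 nuclear rows that match a mitochondrial gene over 50% or more of their length at 95% identity or more, covering 9 of the 13 protein-coding genes. Such copies are stretches of mitochondrial DNA inserted into nuclear chromosomes, and reads from them cannot be told apart where the sequence is the same. In 5 of the 11 the aligned sequence was identical. Gm28438, the copy of mt-Nd3, had 213, 448 and 362 counts with MS-444 and 230, 309 and 145 with DMSO, which was 84.5% to 92.0% of the counts of both rows. Its sequence differs from mt-Nd3 at 1 base, T3C counted from the first base of mt-Nd3, shown in capitals in the first 90 bases.
mt-Nd3: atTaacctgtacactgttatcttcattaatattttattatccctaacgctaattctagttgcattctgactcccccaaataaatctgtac
Gm28438: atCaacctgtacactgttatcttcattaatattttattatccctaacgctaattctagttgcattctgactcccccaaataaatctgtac

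Other copies took a sizeable part too. Gm10925, identical to mt-Atp6 over its aligned length, held 28.2% to 40.8% of the counts of both rows, Gm28437 (mt-Co3) 23.5% to 38.9%, Gm28661 (mt-Co2) 26.8% to 38.1%, Gm10222 (mt-Nd4l) 17.7% to 52.3% and Gm29216 (mt-Co1) 6.02% to 19.5%. Gm28439, identical to mt-Nd4 over 876 bases, held 0.77% or less. Gm13340 (mt-Co1) and Gm4076 (mt-Nd5), at 97.6% and 95.2% identity, held 1.43% or less, and the last copy had 7 counts at most. Counts on Gm28437 were 363, 1352 and 1101 with MS-444 and 796, 1457 and 271 with DMSO, lowest in MS-444 replicate 1 and DMSO replicate 3 as for mt-Co3 itself. Of the 10 copies tested, 0 passed by edgeR (adjusted p 0.15 or more), and 0 had an unadjusted p under 0.05. With the copies added to their genes, mt-Nd2 and mt-Te remained the 2 that passed. mt-Cytb, mt-Nd1, mt-Nd6, mt-Atp8 and the rRNAs had no such row.

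**Figure D5:**
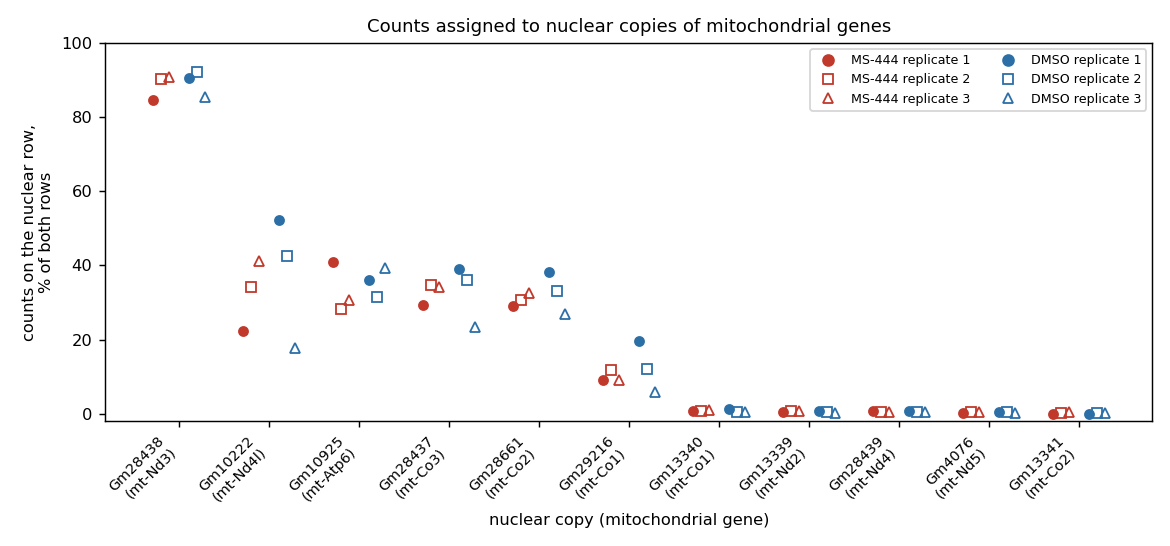
Counts on each nuclear copy as a percentage of the counts on the copy and its mitochondrial gene together (vertical axis), per library, MS-444 left of DMSO, copies ordered by their highest value. Gm28438 holds 84.5% to 92.0% with mt-Nd3, 5 copies hold between 6.02% and 52.3%, and the remaining 5 hold 1.43% or less.

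Nuclear genes copy, transcribe and process the mitochondrial genome. Of 56 such genes, 46 were tested, of which 7 rose, 8 fell and 31 did not pass. Over all genes tested 14.4% rose and 11.1% fell, so the number that rose was near the background. The 46 had a median log2 fold change of 0.12; with library totals in place of TMM 10 rose and 4 fell. As few as 2 rose and 2 fell when 1 library was left out. Polrmt, the mitochondrial RNA polymerase, stood at 7.62, 5.33 and 9.62 CPM with MS-444 and at 2.38, 3.19 and 2.78 CPM with DMSO (log2 1.41, SE 0.44, edgeR adjusted p = 0.039). Its call was lost in 12 of 18 alternatives, among them each that left out 1 library (1.17 to 1.55). Tfam, which packages mitochondrial DNA and starts its transcription, averaged 7.46 ± 1.13 CPM with MS-444 and 6.72 ± 0.89 CPM with DMSO (SD, n = 3; log2 0.16, SE 0.38, adjusted p = 0.78).

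LRPPRC and SLIRP form a complex that binds mitochondrial mRNAs, and their transcripts moved apart. Lrpprc stood at 11.3, 11.8 and 12.3 CPM with MS-444 and at 19.8, 23.7 and 35.6 CPM with DMSO (log2 -1.16, SE 0.33, edgeR adjusted p = 0.029). Slirp stood at 6.89, 7.70 and 5.53 CPM with MS-444 and at 2.38, 1.82 and 1.77 CPM with DMSO (log2 1.75, SE 0.44, edgeR adjusted p = 0.018). Groups were separate for both. The call of Lrpprc was lost with library totals (-0.98), without DMSO replicate 3 (-0.93), and when any 1 MS-444 replicate was left out (-1.22 to -1.19). The call of Slirp was lost without MS-444 replicate 2 or 3 or DMSO replicate 2 or 3 (1.58 to 1.86). Without both MS-444 replicate 1 and DMSO replicate 3 neither passed (-0.88 and 1.64).

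Of the members with the largest changes, 3 encode enzymes that modify mitochondrial tRNAs. Of others of that kind in the list, Trmt10c rose (log2 1.25, edgeR adjusted p = 0.034). Trmt5 (log2 -1.05, edgeR adjusted p = 0.032) and Mto1 (log2 -0.997, edgeR adjusted p = 0.045) fell. Some, such as Nsun3 (log2 -0.42, adjusted p = 0.26) and Gtpbp3 (log2 0.63, adjusted p = 0.29), did not pass. Trmt61b, a methyltransferase, averaged 19.1 ± 0.61 CPM with MS-444 and 1.77 ± 1.68 CPM with DMSO (SD, n = 3; log2 3.56, SE 0.62, edgeR adjusted p = 0.0055). Cdk5rap1, which adds a methylthio group, averaged 17.7 ± 3.92 and 4.51 ± 0.57 CPM (log2 1.98, SE 0.36, adjusted p = 0.0066). Trit1, which adds the isopentenyl group on which Cdk5rap1 acts, fell (log2 -1.77, SE 0.38, adjusted p = 0.0100). Those 3 calls held in each alternative tried. The pentatricopeptide protein gene Ptcd2 (-1.72), the rRNA methyltransferase gene Tfb1m (-1.53) and Mterf4 of mitochondrial ribosome assembly (-1.38) fell as well. Of these, the call of Ptcd2 held in each alternative, that of Tfb1m was lost without MS-444 replicate 3 (-1.51), and that of Mterf4 was lost without MS-444 replicate 2 or 3 or DMSO replicate 2 (-1.53 to -1.19). Both were lost without MS-444 replicate 1 and DMSO replicate 3 together (-1.57 and -1.49). Nsun4, an rRNA methyltransferase gene and the highest of the list in CPM, averaged 253.3 ± 7.24 CPM with MS-444 and 347.2 ± 41.5 CPM with DMSO and did not pass (SD, n = 3; log2 -0.46, SE 0.22, edgeR adjusted p = 0.14).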

How the data were processed

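The authors deposited raw counts per Ensembl gene in 1 table, 1 column for each library. HISAT2, Cufflinks 2.2.1 and the build mm9 are named in the submitters' processing notes. The sources used here do not give the counting program, the annotation, strand, molecular identifiers or how reads matching several places were treated. Per the labels' protocols, samples were pooled after reverse transcription and full-length cDNA was amplified by PCR, so read counts are not counts of molecules.

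Symbols, gene classes and sequences came from GENCODE M21 (GRCm38), which matched all but 64 identifiers. Since that build differs from mm9, no coordinates are given. Genes were filtered by edgeR's expression filter (minimum 10 counts), which kept 98.8% to 99.3% of the counts of a library, and scaled by TMM (factors 0.934 to 1.10). CPM were computed on totals over all rows. The 3 MS-444 libraries were set against the 3 DMSO libraries with edgeR 4.0.16 (quasi-likelihood, two-sided) in R 4.3.3, with Benjamini-Hochberg adjustment; standard errors were derived from that test. For shares, exact permutation tests were used, two-sided, 3 against 3. Nuclear copies were found with blastn 2.17.0. The test was checked on simulated counts. Alternatives used DESeq2 1.42.0, limma 3.58.1, other scalings and filters, a GC and length correction, a replicate block, added nuclear copies and leaving out libraries.

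The mitochondrial genes, the nuclear list and the markers were chosen with earlier results of these data known. All mitochondrial rows were accounted for. Of the nuclear list, Polrmt, Tfam, Lrpprc, the 4 largest changes in each direction past the threshold and the most abundant member are named. Some further enzymes that modify tRNAs are named for comparison.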

Additional observations from a re-analysis of the deposited data

How the results depend on the processing

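Leaving out both MS-444 replicate 1 and DMSO replicate 3, and each alternative for the nuclear list, were chosen after seeing the data. The number of mitochondrial genes that rose (2) became 0 without the filter, 0 after correcting for GC content and length, alone or with the replicate block, 0 without both libraries and 0 to 1 when 1 library was left out; it stayed at 2 or 3 otherwise. The log2 fold changes of mt-Nd2 and mt-Te stayed close to 0.69 and 1.26 without the filter (0.64 and 1.21) and without both libraries (0.68 and 1.35), and were 0.21 and 0.19 after correcting for GC content and length. The number that fell (0) became 1 with the GC and length correction, mt-Ti (-1.37, adjusted p = 0.035). The median log2 fold change was -0.56 with that correction and -0.37 with it and the replicate block, and 0.09 to 0.46 when 1 library was left out; the cause was not tested. Same-numbered libraries had correlations of 0.06, 0.37 and -0.10 in their deviations from group means. Those of differently numbered libraries ran from -0.46 to 0.36. With so few libraries these values do not settle whether the numbers pair them. With the replicate block 1971 genes rose and 1434 fell, mt-Nd2 and mt-Te among the risen, against 1706 and 1322 without it.

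With the GC and length correction log2 fold changes turned negative for mt-Rnr1 (-0.29), mt-Rnr2 (-0.13), mt-Nd1 (-0.66), mt-Ty (-0.21), mt-Co2 (-0.12), mt-Atp8 (-0.85), mt-Atp6 (-0.20), mt-Co3 (-0.26), mt-Nd3 (-0.30), mt-Nd4l (-1.12), mt-Nd4 (-0.13), mt-Ts2 (-0.73), mt-Tl2 (-0.56), mt-Nd6 (-0.70), mt-Tt (-0.76) and mt-Tp (-1.07). With the replicate block added they were -0.22 for mt-Rnr1, -0.059 for mt-Rnr2, -0.37 for mt-Nd1, -0.18 for mt-Ty, -0.18 for mt-Co2, -0.41 for mt-Atp8, -0.17 for mt-Atp6, -0.30 for mt-Co3, -0.27 for mt-Nd3, -0.37 for mt-Nd4l, -0.65 for mt-Ts2, -0.51 for mt-Tl2, -0.68 for mt-Nd6, -0.93 for mt-Tt and -0.82 for mt-Tp. Values near 0 changed sign with library totals (mt-Tl1 0.005, mt-Ti 0.021, mt-Tm 0.029, mt-Tw 0.14), limma on log2(CPM + 1) (mt-Tm 0.032, mt-Tw 0.11) or log2(CPM + 5) (mt-Tw 0.063), no filter (mt-Rnr2 -0.01, mt-Nd1 -0.013), the replicate block (mt-Tw 0.20) and without both libraries (mt-Rnr2 -0.02, mt-Tm 0.20, mt-Nd6 -0.08).

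Leaving out 1 library gave -0.083 to 0.53 for mt-Rnr1, -0.17 to 0.10 for mt-Rnr2, -0.31 to 0.46 for mt-Nd1, -0.33 to 0.043 for mt-Ti, -1.02 to 0.996 for mt-Tm, -0.52 to 0.81 for mt-Tw, -0.65 to 1.64 for mt-Atp8, -0.14 to 0.50 for mt-Co3, -0.63 to 1.55 for mt-Nd4l, -0.079 to 0.56 for mt-Nd4, -0.08 to 0.27 for mt-Nd6, -0.46 to 0.64 for mt-Tt, -0.21 to 0.61 for mt-Tp and -0.013 to 0.22 for Tfam (0.33 without both libraries). In percentage points it gave -5.64 to -1.21 for the rRNA share, -0.026 to -0.0038 for the light-strand share, -9.79 to 2.22 for the complex I share, -0.19 to 10.7 for complex III, -0.27 to 0.52 for complex V and -0.12 to 0.036 for tRNAs; without both libraries complex V was at -0.20. The mitochondrial share stayed 1.29 to 1.70 points higher with MS-444. Of the nuclear list (7 rose and 8 fell), 4 fell with library totals, 3 rose and 4 fell without both libraries, and with 1 library left out 2 to 8 rose and 2 to 8 fell.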
